A study of Mus musculus with 9 samples.

Results

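The genes described here are 10 that mark brown and beige adipocytes, namely Ucp1, Cidea, Prdm16, Dio2, Ppargc1a, Elovl3, Cox7a1, Cox8b, Ebf2 and Tbx1. They were found by their symbols in the annotation of the array, which names 14 probes for them among 45281 probes in all, and 19057 genes. RNA of epididymal fat was measured on Illumina bead arrays in 9 FVB/N mice, 1 array per mouse. 5 mice, numbered 165, 152, 147, 163 and 164, had the genotype tg/tg, in which a transgene supplies the tropomyosin Tm5NM1, an actin filament protein of the cytoskeleton. The other 4, numbered 141, 142, 143 and 159, had the genotype wt/wt and served as non-transgenic controls. Both genotypes share an age of 3 months and a fast of 14 to 16 h. What promoter drives the transgene, and whether the mice stem from 1 founder, is not stated in the labels.

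Brown adipocytes burn fat to make heat. Their inner mitochondrial membrane carries the uncoupling protein Ucp1, which lets protons return without making ATP. Cold and noradrenaline drive this programme through cAMP, the coactivator Ppargc1a and thyroid hormone made locally by the deiodinase Dio2. Beige adipocytes are cells of white depots that take on the same programme, and the epididymal depot of mice is known as a white depot with few of them. Prdm16 and Ebf2 are nuclear factors that direct cells to the brown and beige fate. Tbx1 is a T-box factor used as a beige marker. Cidea is a lipid droplet protein, Elovl3 a fatty acid elongase, and Cox7a1 and Cox8b are subunits of cytochrome c oxidase that are otherwise typical of heart and skeletal muscle.

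A probe counted as detected on an array at a detection p under 0.05, and probes detected on at least 4 arrays were tested, 23354 in all. On each array 22239 to 23313 probes were detected, and the median deposited intensity was 168.9 to 191.5 in the tg/tg mice and 142.2 to 171.9 in the wt/wt mice. The 3 dimmest arrays were those of wt/wt mice 142, 143 and 159, and array brightness is therefore given beside the results it touches. Values below are normalized signals on the log2 scale, with the difference taken as tg/tg minus wt/wt. In whole fat, fewer cells of a type and less RNA per cell cannot be told apart.

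The defining brown adipocyte gene, Ucp1, was near background in both genotypes, and so were Dio2 and Elovl3. Ucp1 had deposited intensities of 139.6, 165.9, 127.5, 142.7 and 154.2 in tg/tg mice 165, 152, 147, 163 and 164, against 137.7, 135.8, 151.7 and 123.2 in wt/wt mice 141, 142, 143 and 159. It was detected in 0 of 5 tg/tg mice and in 1 of 4 wt/wt mice, mouse 143, with a detection p of 0.0221. That array was among the dimmer ones, and its lowest detected signal was 145.5, against 165.0 to 188.9 on the tg/tg arrays. By construction a probe with no target passes the detection threshold on 5% of arrays.

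Neither probe of the deiodinase gene Dio2 was detected on any of the 9 arrays. The brighter of them read 139.9 to 169.4 in tg/tg mice and 123.0 to 150.3 in wt/wt mice, and its lowest detection p was 0.0739, in tg/tg mouse 164. The elongase gene Elovl3 was detected on no array either, with intensities of 122.8 to 141.8 in tg/tg mice and 107.2 to 141.3 in wt/wt mice. These 3 genes had no tested probe, and no fold is given for them because both genotypes lay at background. Levels below the sensitivity of these probes were not measurable here.

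**Figure D1:**
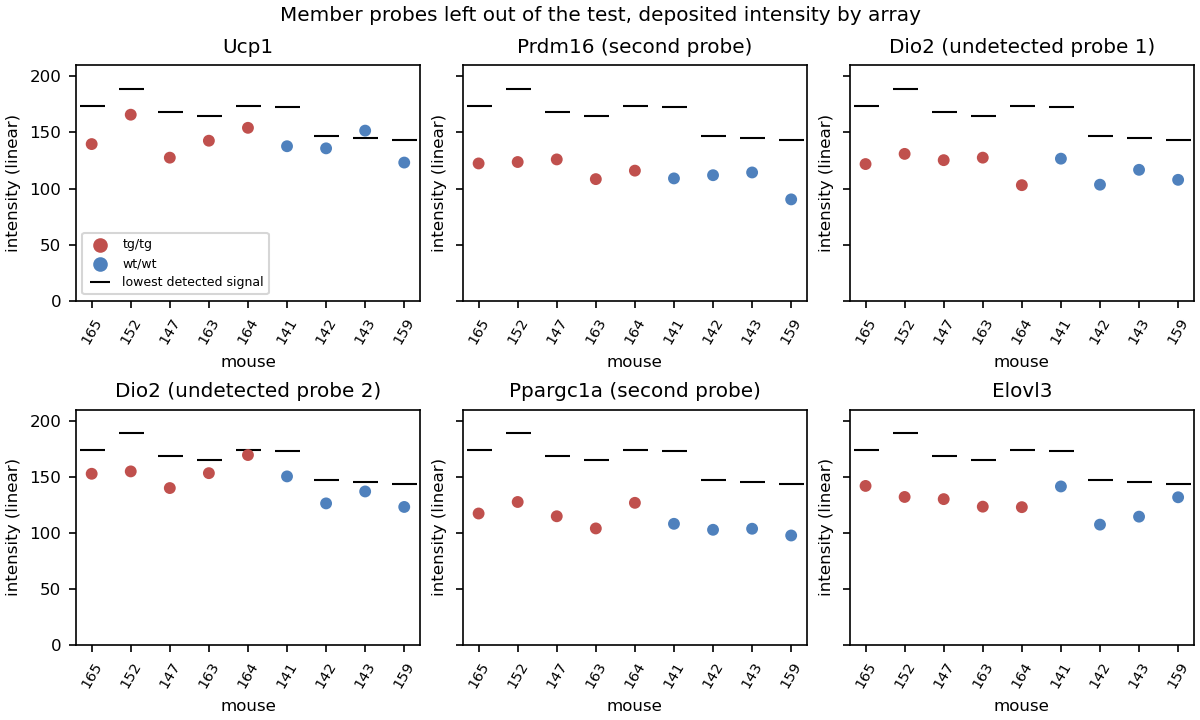
Deposited intensity (linear scale) of the 6 probes left out of the test, by mouse, with the tg/tg mice in red left of the wt/wt mice in blue. Black bars mark the lowest signal detected on each array. Ucp1 in wt/wt mouse 143, at 151.7, is the only point above its bar.

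The other 7 genes were measured, through 8 tested probes. 7 of the 8 were detected on all 9 arrays, and Tbx1 on 8. 6 of the 7 genes had a higher mean in tg/tg mice and 1 had a lower mean, with a median difference of 0.12 between the genotypes. Without tg/tg mouse 165, 4 of the 7 had a higher mean in tg/tg mice and the median was 0.01. The median was 0.29 without tg/tg mouse 152, 0.04 without tg/tg mouse 164, 0.06 without wt/wt mouse 142 and 0.21 without wt/wt mouse 143. It was 0.46 without normalization between arrays, a setting that here and below also leaves out background correction. Over all tested probes the median difference was 0.05, and 57.5% of them had a higher mean in tg/tg mice. None of the 7 genes passed the test over all probes (limma with Benjamini-Hochberg adjustment, adjusted p from 0.604 to 0.967, threshold 0.05), where 0.0685% of all tested probes passed, 0% as higher. The 16 probes that passed were all lower in tg/tg fat, whereas without normalization between arrays 4850 passed as higher and 60 as lower. At an unadjusted p under 0.05, 1 of the 8 probes passed, the dimmer Ebf2 probe, against 9.45% of all tested probes, 6.05% as higher and 3.4% as lower. The genotypes overlapped at every one of the 8 probes, while at 3.21% of all tested probes they did not, 2.04% as higher.

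**Figure D2:**
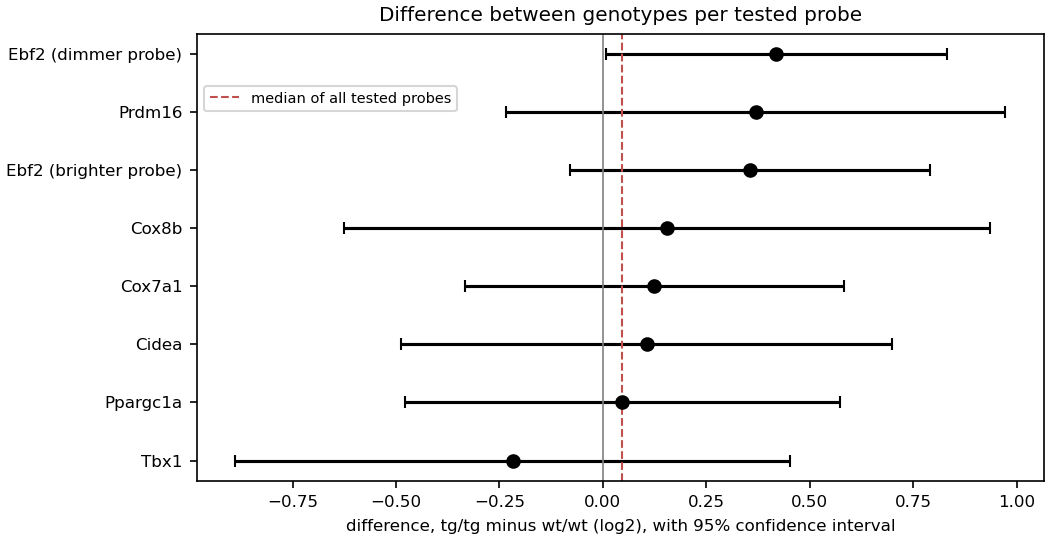
Difference of tg/tg minus wt/wt on the log2 scale for the 8 tested probes, with the 95% confidence interval of limma (5 tg/tg and 4 wt/wt mice). The dashed line is the median of all tested probes, 0.05. The interval of the dimmer Ebf2 probe lies above 0 and the other 7 intervals include it.

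Among the nuclear factors, Ebf2 had the lowest p-value. Its brighter probe read 11.01, 10.33, 10.89, 10.75 and 10.52 in tg/tg mice 165, 152, 147, 163 and 164, against 10.43, 10.72, 9.95 and 10.27 in wt/wt mice 141, 142, 143 and 159. The genotypes overlapped through tg/tg mice 152 and 164 and wt/wt mice 141 and 142. The means were 10.70 ± 0.28 (SD, n = 5) in tg/tg fat and 10.35 ± 0.32 (SD, n = 4) in wt/wt fat. The difference was 0.36 with a 95% confidence interval of -0.08 to 0.79 (limma adjusted p = 0.604).

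The dimmer Ebf2 probe gave a like difference of 0.42 with an interval of 0.01 to 0.83 (unadjusted p = 0.0467, limma adjusted p = 0.525). It read 10.52 ± 0.26 (SD, n = 5) in tg/tg fat and 10.11 ± 0.29 (SD, n = 4) in wt/wt fat, and tg/tg mouse 152, at 10.06, lay below the other 4 tg/tg mice. The probes target the same gene and are not separate evidence. Without normalization between arrays both probes passed, with differences of 0.77 at the dimmer and 0.71 at the brighter probe (limma adjusted p = 0.0321 and 0.0361). That setting moved the median difference of all probes to 0.34. Without the 3 dimmer arrays, which leaves mouse 141 as the lone wt/wt array and assumes that it varies like the tg/tg mice, the differences were 0.32 at the dimmer and 0.27 at the brighter probe.

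Prdm16, the zinc finger factor that switches precursors to the brown fate, read 6.21, 7.24, 7.14, 6.97 and 7.08 in tg/tg mice 165, 152, 147, 163 and 164, against 7.02, 5.95, 6.87 and 6.37 in wt/wt mice 141, 142, 143 and 159. 4 of the 5 tg/tg mice lay close together, and mice 163 and 165 lay inside the range of the wt/wt mice. The difference was 0.37 (95% confidence interval -0.23 to 0.97, limma adjusted p = 0.698). It turned to -0.10 without the 3 dimmer arrays, whose Prdm16 signals of 156.4 to 191.9 lay below the 195.6 to 329.9 of the tg/tg arrays in deposited intensity. A second Prdm16 probe was detected on no array.

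Tbx1 was the single measured gene with a lower mean in tg/tg fat, 6.14 ± 0.57 (SD, n = 5), against 6.36 ± 0.41 (SD, n = 4) in wt/wt fat. It read 5.45, 6.06, 6.40, 6.95 and 5.85 in tg/tg mice 165, 152, 147, 163 and 164, and in mouse 165 it was not detected. The wt/wt mice 141, 142, 143 and 159 gave 6.28, 5.86, 6.46 and 6.84. The ranges covered each other, and the difference of -0.22 (95% confidence interval -0.89 to 0.45) did not pass (limma adjusted p = 0.858). It was 0.18 without normalization between arrays and 0.09 with array weights.

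The coactivator Ppargc1a differed least. It read 7.94, 9.14, 9.09, 8.93 and 8.82 in tg/tg mice 165, 152, 147, 163 and 164, against 8.70, 8.76, 8.58 and 8.91 in wt/wt mice 141, 142, 143 and 159. Tg/tg mouse 165 was the lowest of all 9 mice, and 3 of the other tg/tg mice were the highest. The means were 8.78 ± 0.49 (SD, n = 5) and 8.74 ± 0.14 (SD, n = 4), a difference of 0.05 whose interval of -0.48 to 0.57 corresponds to 0.717 to 1.49 times the wt/wt level (limma adjusted p = 0.967). Without mouse 165 the difference was 0.26. A second Ppargc1a probe was detected on no array.

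The lipid droplet gene Cidea was detected on all 9 arrays. It read 8.96, 7.67, 8.41, 8.48 and 8.94 in tg/tg mice 165, 152, 147, 163 and 164, against 8.45, 8.54, 8.58 and 7.97 in wt/wt mice 141, 142, 143 and 159. The highest and the lowest values of all mice were both tg/tg, mouse 165 and mouse 152. The difference was 0.11 (95% confidence interval -0.49 to 0.70, or 0.713 to 1.62 times the wt/wt level, limma adjusted p = 0.928). It was 0.32 without mouse 152 and -0.01 without mouse 165.

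The oxidase subunit genes showed the same order of mice at their ends. Cox8b read 10.81, 8.87, 10.11, 9.99 and 10.59 in tg/tg mice 165, 152, 147, 163 and 164, against 9.74, 9.62, 10.10 and 10.21 in wt/wt mice 141, 142, 143 and 159. Mice 165 and 164 were the highest and mouse 152 the lowest of all 9. The means were 10.07 ± 0.75 (SD, n = 5) and 9.92 ± 0.28 (SD, n = 4), and the difference of 0.15 (95% confidence interval -0.63 to 0.93) did not pass (limma adjusted p = 0.919). It was 0.46 without mouse 152 and -0.03 without mouse 165.

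Cox7a1 read 9.47, 8.63, 8.73, 9.01 and 9.29 in tg/tg mice 165, 152, 147, 163 and 164, against 8.90, 8.72, 9.26 and 8.73 in wt/wt mice 141, 142, 143 and 159. Again mouse 165 was the highest, mouse 164 next and mouse 152 the lowest. The difference was 0.12 (95% confidence interval -0.33 to 0.58, or 0.793 to 1.50 times the wt/wt level, limma adjusted p = 0.884). Its ubiquitous counterpart Cox7a2 differed by 0.19 (limma adjusted p = 0.786).

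**Figure D3:**
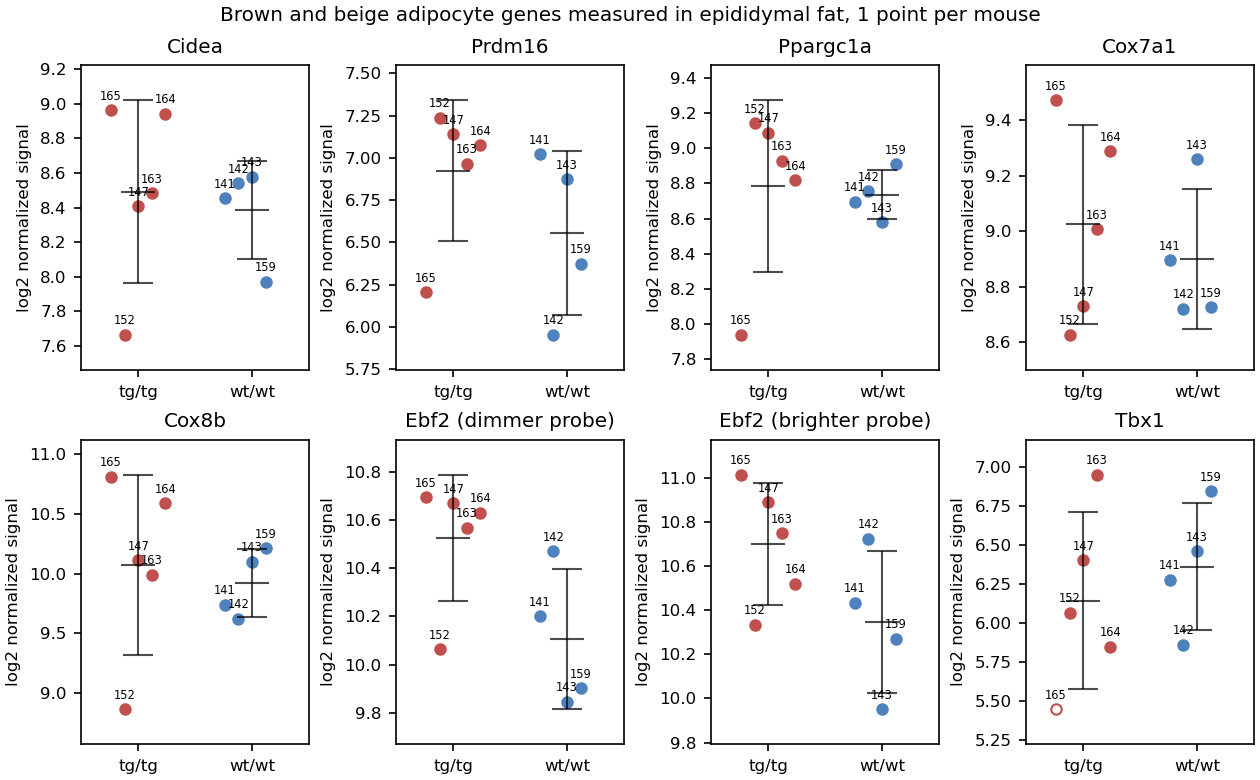
Normalized log2 signal of the 8 tested probes, 1 point per mouse with its number, tg/tg in red left of wt/wt in blue, with the mean and SD in black (n = 5 and n = 4). The open circle is tg/tg mouse 165, where Tbx1 was not detected. The genotypes overlap in every panel, and mouse 152 is lowest in the panels of Cidea, Cox7a1 and Cox8b.

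Because Cox7a1 and Cox8b are also muscle isoforms, skeletal muscle markers were read beside them. Of 12 markers, 11 were named on the array and 5 were tested, and none passed. Creatine kinase Ckm and the myosin Myh4 were detected on no array. The summed signal of the 5 tested markers was 1059, 647, 781, 830 and 1284 in tg/tg mice 165, 152, 147, 163 and 164. It was 1088, 1216, 1045 and 1284 in wt/wt mice 141, 142, 143 and 159. The sum was highest in mice 164 and 159, while Cox7a1 and Cox8b were highest in mouse 165. Mouse 152 was the lowest of all 9 mice for the sum, for Cox7a1 and for Cox8b. Skeletal actin Acta1, the brightest of the muscle markers, read 8.98 ± 0.65 (SD, n = 5) in tg/tg fat and 9.63 ± 0.30 (SD, n = 4) in wt/wt fat (limma adjusted p = 0.554). The part of the muscle markers in the Cox7a1 and Cox8b signals was not tested.

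General adipocyte markers were read in the same way. 9 of 10 were tested, 7 had a higher mean in tg/tg fat and 2 a lower one, and none passed. Their mean level was 14.00 in tg/tg mouse 165, 13.22 in 152, 13.94 in 147, 13.76 in 163 and 13.84 in 164, against 13.85, 13.70, 13.28 and 13.02 in wt/wt mice 141, 142, 143 and 159. Tg/tg mouse 152, the lowest for Cidea, Cox7a1 and Cox8b, was the lowest tg/tg mouse here too. The epididymis markers, 11 of 14 tested, had a mean level of 5.25, 10.65, 7.85, 5.46 and 5.41 in tg/tg mice 165, 152, 147, 163 and 164, against 13.90, 11.59, 14.59 and 12.24 in wt/wt mice 141, 142, 143 and 159. All 11 had a lower mean in tg/tg fat and 4 passed as lower (limma with Benjamini-Hochberg adjustment). The part of either list in the values of the brown and beige genes was not tested.

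Each mouse was then compared with the mean of its genotype, to see which of the 7 genes vary together within a genotype. Tg/tg mice 165 and 152, described below, had array weights of 0.509 and 0.369 in limma's fit over all tested probes. The other tg/tg arrays had weights of 2.14 to 2.51. The wt/wt arrays had weights of 0.347 to 1.94, lowest in mouse 159. The part of array quality in the deviations below was not tested. In tg/tg mouse 165, Cidea lay 0.47, Cox7a1 0.45 and Cox8b 0.73 above that mean, while Ppargc1a lay at -0.84, Prdm16 at -0.72 and Tbx1 at -0.69. In tg/tg mouse 152 the signs were turned for 5 of these 6 genes, with Cox8b at -1.20 and Ppargc1a at 0.36. The exception was Tbx1, at -0.08.

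Over the 9 mice, Pearson r between Cidea and Cox7a1 was 0.82 (exact permutation p = 0.00465, adjusted 0.0572) and Spearman rho was 0.83 (exact permutation p = 0.00827, adjusted 0.174). Without the mice farthest from the median of Cidea, 152 and 159, r was 0.83, and on deviations from the genotype means it was 0.81. Between Ppargc1a and Cox7a1 r was negative, -0.78 (exact permutation p = 0.00545, adjusted 0.0572), as was rho, -0.63 (exact permutation p = 0.0760, adjusted 0.319). That r was -0.51 without the 2 mice farthest from the median of Ppargc1a and -0.82 within genotypes.

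Cidea with Cox8b gave r = 0.78 (exact permutation p = 0.0152, adjusted 0.0800) but rho = 0.53 (exact permutation p = 0.148, adjusted 0.509). Cox7a1 with Cox8b gave r = 0.76 (exact permutation p = 0.0132, adjusted 0.0800) and rho = 0.73 (exact permutation p = 0.0311, adjusted 0.218). Each pair was also read without the 2 mice farthest from the median of its first gene. For Cidea with Cox8b these were mice 152 and 159, and r became 0.86. For Cox7a1 with Cox8b they were mice 165 and 164, and r became 0.47. Mouse 165, the highest for Cidea, Cox7a1 and Cox8b, thus stayed in for the Cidea pairs. Within genotypes the r of these pairs was 0.77 and 0.75. Of all 21 pairs, 4 had an unadjusted p of r under 0.05 and none passed Benjamini-Hochberg adjustment over the 21. Ebf2 was in none of the 4.

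**Figure D4:**
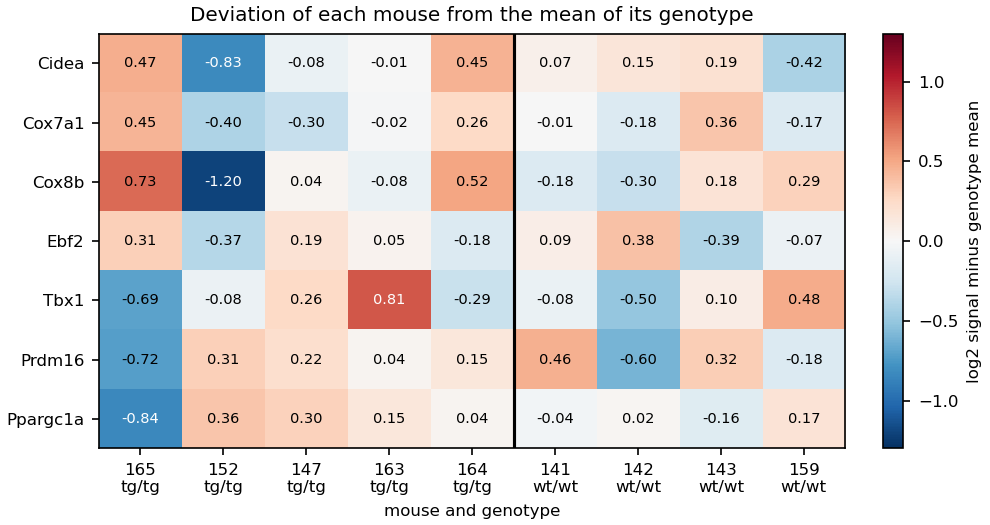
Log2 signal of each measured gene in each mouse minus the mean of its genotype (red above, blue below), tg/tg mice left of the line and wt/wt mice right of it. Mouse 165 is high for Cidea, Cox7a1 and Cox8b and low for Tbx1, Prdm16 and Ppargc1a.

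The promoters of Cox7a1 and Cox8b are shown because these genes of 1 enzyme complex lay at the same ends of the range in mice 165, 164 and 152. Each window holds 250 bases before to 50 after the gene start, from RefSeq on build GRCm38.p6, on the strand of the gene. Cox7a1 is at chr7:30183921-30184220 on the plus strand and Cox8b at chr7:140900397-140900696 on the minus strand. Capitals mark matches on either strand to AAGGTCA, a half-site of estrogen-related receptors, to TGACGTCA, the cAMP response element, to TATAAA, the TATA box, and to CCAAT, printed as ATTGG where it matched in reverse.
Cox7a1: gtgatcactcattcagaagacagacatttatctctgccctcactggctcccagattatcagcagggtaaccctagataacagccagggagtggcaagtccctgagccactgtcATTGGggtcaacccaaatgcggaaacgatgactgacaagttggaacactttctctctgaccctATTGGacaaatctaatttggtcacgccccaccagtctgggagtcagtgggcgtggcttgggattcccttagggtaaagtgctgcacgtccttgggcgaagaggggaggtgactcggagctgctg
Cox8b: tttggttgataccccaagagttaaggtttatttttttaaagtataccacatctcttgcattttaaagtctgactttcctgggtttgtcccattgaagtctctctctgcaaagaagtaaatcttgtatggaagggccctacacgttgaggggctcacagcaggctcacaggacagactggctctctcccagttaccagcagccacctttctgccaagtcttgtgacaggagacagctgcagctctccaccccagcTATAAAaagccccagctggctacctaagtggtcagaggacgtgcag
Cox7a1 holds 2 CCAAT matches, both in reverse, at positions -137 and -74 from the gene start, and 37.4% of 32851 RefSeq windows hold that motif. Cox8b holds TATAAA at position 5, as do 13.6% of windows at some position. Neither holds the half-site, present in 4.72% of windows, or the cAMP response element, present in 1.79%. Among the 7 of the 10 genes with a window in the table, the cAMP response element occurs only in that of Dio2, at -95, whose transcript was not detected. These matches are letters in a window and show no binding.

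The paralogues of these genes were read next. Of 25 on the list, 21 were named on the array and 18 were tested, 8 with a higher and 10 with a lower mean in tg/tg fat, and none passed. The elongase gene Elovl4, which makes very long chain fatty acids, was detected on none of the tg/tg arrays and on all 4 wt/wt arrays. It read 5.07 to 5.59 in the tg/tg mice, against 9.76, 7.27, 10.14 and 6.93 in wt/wt mice 141, 142, 143 and 159. On the background-corrected, quantile-normalized scale the wt/wt mean was 7.48 times the mean of the lowest detected signals of the tg/tg arrays. This is a ratio of group means and not a minimum, since wt/wt mice 142 and 159 lay below the wt/wt mean of 8.53. With the signals as read, limma's confidence interval was 0.0404 to 0.278 times the wt/wt level. The difference did not pass (limma adjusted p = 0.158). That ratio of 7.48 belongs to this scale. The log2 difference was -3.24 on it and -2.52 with an offset of 50. With no background correction it was -1.81, and with neither background correction nor normalization between arrays it was -1.53. In wt/wt fat Elovl4 was highest in mice 141 and 143, where the epididymis markers were highest too, and their part in it was not tested. Without the 3 dimmer arrays the difference was -4.52, with mouse 141 as the lone wt/wt array. Elovl4 passed when arrays were weighted (limma adjusted p = 0.00925). It also passed with neither background correction nor normalization between arrays (limma adjusted p = 0.0438). Elovl4 entered the test only through its detection on the 4 wt/wt arrays, the group where it is high, so these p-values are no separate evidence.

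Ppargc1b, the close relative of Ppargc1a, read 10.71 ± 0.14 (SD, n = 5) in tg/tg fat and 10.17 ± 0.33 (SD, n = 4) in wt/wt fat, a difference of 0.55 (limma adjusted p = 0.399). Only wt/wt mouse 143, at 10.57, reached into the tg/tg range of 10.52 to 10.89. Without normalization between arrays it passed (limma adjusted p = 0.0302), where the median of all probes was 0.34. The elongase gene Elovl7 differed by -0.40 (limma adjusted p = 0.580). Ucp3, the relative of Ucp1 that is typical of muscle, read 7.98 ± 1.02 (SD, n = 5) in tg/tg fat and 8.36 ± 0.47 (SD, n = 4) in wt/wt fat at its brighter probe (limma adjusted p = 0.842), and mouse 152, at 6.30, was the lowest.

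Of the other transcriptional regulators of brown and beige fat, 21 of 24 were tested, 13 with a higher and 8 with a lower mean in tg/tg fat, with a median difference of 0.11, and none passed. Cebpb, a C/EBP factor that partners Prdm16, read 12.30, 11.87, 12.05, 12.13 and 12.24 in tg/tg mice 165, 152, 147, 163 and 164, against 12.72, 12.87, 12.78 and 13.10 in wt/wt mice 141, 142, 143 and 159. Every tg/tg mouse lay below every wt/wt mouse. The genotypes did not overlap at 2 of the 21 tested regulators, Cebpb and Irf4, and at 3.21% of all tested probes. The difference was -0.75 (limma adjusted p = 0.143). It was -0.60 without the 3 dimmer arrays and -0.39 without normalization between arrays (limma adjusted p = 0.0622 in the latter). With array weights it passed (-0.67, limma adjusted p = 0.0295), a setting in which 353 of all tested probes passed, against 16.

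Irf4, an interferon regulatory factor that works with Ppargc1a in brown fat and is also a lymphocyte gene, read 8.53 ± 0.39 (SD, n = 5) in tg/tg fat and 11.32 ± 1.55 (SD, n = 4) in wt/wt fat. The groups did not overlap, with 7.93 to 8.92 in tg/tg mice, against 9.65 to 13.39 in wt/wt mice, lowest in mouse 141 and highest in mouse 159. The difference of -2.79 did not pass (limma adjusted p = 0.209). It was -1.11 without the 3 dimmer arrays, -2.10 without wt/wt mouse 159 and -1.98 with array weights. It passed without normalization between arrays (-2.13, limma adjusted p = 0.0325). Zic1, a factor of classical brown fat, was detected on no array.

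Of the genes of beta-adrenergic and cAMP signalling, 14 of 19 were tested, 8 with a higher and 6 with a lower mean, and none passed. The beta-adrenergic receptors are not named here. The cAMP phosphodiesterase gene Pde4d differed by -1.52 at its standing probe (limma adjusted p = 0.348). There the groups did not overlap, as at 3.21% of all tested probes, and wt/wt mouse 159 read 9.89. The difference at this probe was -0.86 without the 3 dimmer arrays and -0.999 without wt/wt mouse 159. It was -0.99 with no background correction and -0.68 with neither background correction nor normalization between arrays. The other tested Pde4d probes differed by -0.34 and 0.06. Creb1, the cAMP-responsive factor, differed by 0.38 at its brighter probe and by -0.03 at the other tested probe (limma adjusted p = 0.544 and 0.988). The triglyceride lipase gene Pnpla2 differed by -0.32 (limma adjusted p = 0.638).

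**Figure D5:**
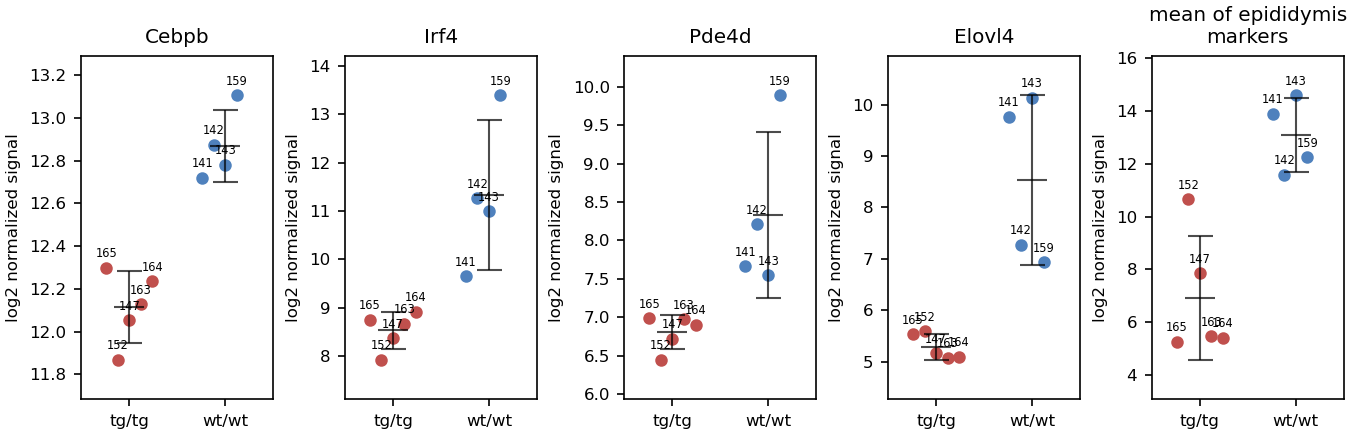
Normalized log2 signal of Cebpb, Irf4, Pde4d and Elovl4 and the mean of 11 epididymis markers, 1 point per mouse, tg/tg in red left of wt/wt in blue, with the mean and SD in black (n = 5 and n = 4). The genotypes do not overlap in any panel, and none of the 4 genes passed the test over all probes. The 4 genes were picked for a low unadjusted p in these same data, so their separation is no separate evidence. Over all tested probes, 3.21% did not overlap, 2.04% as higher.

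The beige markers beyond Tbx1 gave 9 tested genes of 15, 7 with a higher and 2 with a lower mean in tg/tg fat, a median difference of 0.29, and none past the test. The beige marker genes Tmem26 and Hoxc8 were detected on no array. The fatty acid transporter gene Slc27a1 differed by -0.49, the nuclear body gene Sp100 by 0.54 and the secreted peptidase gene Pm20d1 by 0.29 (limma adjusted p = 0.496, 0.509 and 0.602). The other tested Sp100 probes differed by 0.76 and 1.1 (limma adjusted p = 0.496 and 0.451). Genes enriched in brown adipocytes ran the other way by their median, -0.11, with 6 of 17 tested genes higher and 11 lower and none past the test. Among them the adhesion gene Mpzl2, detected in 3 of 5 tg/tg mice and 4 of 4 wt/wt mice, differed by -0.68, the neurotrophin receptor gene Ntrk3 by 0.54 and the pantothenate kinase gene Pank1 by -1.13 (limma adjusted p = 0.519, 0.541 and 0.556). The other tested Pank1 probes differed by -0.08, -0.49 and 0.15, and those of Ntrk3 by 0.364 and 0.355.

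White adipocyte selective genes gave 11 tested of 12, 8 with a higher and 3 with a lower mean and a median of 0.27, and none passed. The angiotensinogen gene Agt read 11.73 ± 0.16 (SD, n = 5) in tg/tg fat and 11.26 ± 0.23 (SD, n = 4) in wt/wt fat (limma adjusted p = 0.401), and it passed without normalization between arrays (adjusted p = 0.0302). The fat pad growth gene Mest differed by 1.23 and the secreted Wfdc21 by 0.73 (limma adjusted p = 0.614 and 0.638).

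Genes of mitochondrial biogenesis split evenly, with 6 of 12 tested genes higher and 6 lower, a median of -0.03, and none past the test. The deacetylase gene Sirt3 differed by 0.31 and the mitochondrial RNA polymerase gene Polrmt by 0.13 (limma adjusted p = 0.566 and 0.752). 5 of 10 genes of thyroid hormone signalling were tested, 3 higher and 2 lower, with Thra at 0.48, Rxra at 0.23 and Dio1 at -0.49 (limma adjusted p = 0.631, 0.750 and 0.754). Of the secreted activators, 9 of 13 were tested, 4 higher and 5 lower. The irisin precursor gene Fndc5 differed by 0.69, Metrnl by 0.28 and Nrg4 by -0.40 (limma adjusted p = 0.481, 0.589 and 0.682). The other tested probes differed by 0.58, 0.53 and 0.50 for Fndc5, 0.37 for Metrnl and -0.44 for Nrg4, and none passed. At the Fndc5 probe with 0.58 the genotypes did not overlap, as at 3.21% of all tested probes.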

How the data were processed

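RNA of epididymal fat was measured in 9 mice, 1 array each. 2 tables were deposited. The authors' series matrix holds linear intensities, and the labels name no scaling for them. The other deposited table pairs a signal with a detection p-value for every probe, per the file headers. Labelling used an Ambion kit, per the labels' protocols; the labels name no scanner or software. The detection p never rose with the series matrix signal, but rose at up to 6789 places with that of the other table, so the series matrix was used.

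neqc in limma 3.58.1 (R 4.3.3) corrected background, added an offset of 16, normalized by quantiles and took log2. Probes detected on at least 4 arrays (23354) were fitted with lmFit and eBayes, two-sided, with no covariate, and Benjamini-Hochberg adjustment over all of them. A gene stands for its tested probe of highest mean. Of these steps, the limma fit alone was tested on simulated data. Mice were grouped by genotype labels; the labels name no slide or litter, and whether spread between mice holds litter effects was not tested; the number of arrays limits precision.

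The members and lists were chosen with earlier results of these data known. Named genes were all members, the 3 lowest unadjusted p of each pathway list, marker genes of highest signal, and the 3 genes most like each member; Cox7a2, Ucp3 and undetected genes were named beside members. Lists were described, not tested. The alternatives concern background, offset, scaling, table, filter, weights, prior and each mouse left out. The setting without normalization between arrays took log2 of the deposited intensities, so it also left out background correction and the offset. Leaving out the 3 dimmer arrays was added after seeing the data.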

Additional observations from a re-analysis of the deposited data

Results flagged for a closer look

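In each genotype the most distant mouse was compared with its nearest neighbour at the 8 tested probes, 16 groups in all. By chance about 1 in 20 such groups stands out, and 3 did, all in tg/tg mice. The groups are not independent, since they share arrays and the Ebf2 probes share a gene, so the count cannot be judged against chance. In tg/tg mouse 165, Prdm16 read 6.21, with the next tg/tg mouse at 6.97, and Ppargc1a read 7.94, with the next at 8.82. In tg/tg mouse 152 the dimmer Ebf2 probe read 10.06, with the next tg/tg mouse at 10.57. The gap took 73.5% of the range for Prdm16, 73.1% for Ppargc1a and 79.9% for the dimmer Ebf2 probe. At the brighter Ebf2 probe the gap of mouse 152 took 27.3% and did not stand out.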

How the results depend on the processing

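19 alternatives were run on the 8 tested probes of the brown and beige genes and 6 further named genes. Of 151 values for the 8 probes, 138 kept their direction and side of the threshold, 11 turned direction and 2 passed, both Ebf2 without normalization between arrays. That setting called 4910 probes in all and 1 of the 7 genes, against 16 and 0. The count over all probes was 353 with array weights, 9 with no filter, 1 with probes detected on all 9 arrays, which leaves no Tbx1 probe, and 39 without the 3 dimmer arrays, and 9 to 50 with a mouse left out, highest without tg/tg mouse 152, 37 without wt/wt mouse 142 and 9 without tg/tg mouse 147, 163 or 164. None of the 7 genes passed with a mouse left out. Directions turned for Tbx1 without normalization between arrays (0.18) and with array weights (0.093), for Prdm16 without the 3 dimmer arrays (-0.096), for Ppargc1a in the other table (-0.0049), without tg/tg mouse 152 (-0.043) or 147 (-0.029) and without wt/wt mouse 143 (-0.0050), for Cidea without tg/tg mouse 165 (-0.012) or 164 (-0.0068) or wt/wt mouse 159 (-0.033), and for Cox8b without tg/tg mouse 165 (-0.029). The cause was not tested. Over the mice left out, Cidea ranged from -0.033 to 0.32, Ppargc1a from -0.043 to 0.26, Cox8b from -0.029 to 0.46, Cox7a1 from 0.013 (without tg/tg mouse 165) to 0.24 (without wt/wt mouse 143), Prdm16 from 0.17 (without wt/wt mouse 142) to 0.55 (without tg/tg mouse 165) and Tbx1 from -0.42 (without tg/tg mouse 163) to -0.045 (without tg/tg mouse 165). Ebf2 ranged from 0.22 to 0.48 at the brighter and 0.33 to 0.54 at the dimmer probe. Signal at background limits Ucp1, Dio2 and Elovl3. No paired analysis was possible because the labels name no litter or pairing of the mice.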

Other observations

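For each measured gene, the 3 named genes whose signals over the 9 arrays were most like its own were listed by Pearson r. They are the highest of 12170 genes each, share the 9 arrays and their normalization, and are given as a description. For Cidea they were Prkd2 (r = 0.98), Eci3 (0.96) and Pccb (0.96). For Cox7a1 they were Lsm3 (0.95), Rap2b (0.94) and Cox5b, another cytochrome c oxidase subunit (0.93). For Cox8b they were Mosmo (0.97), Creld1 (0.96) and S100a6 (0.95). For Ebf2 they were Afg1l (0.96), Dlgap4 (0.96) and Atp1b3 (0.95). For Ppargc1a they were Aqp4 (0.98), Eif5 (0.97) and Gm973 (0.97). For Prdm16 they were Capn1 (0.95), Dzank1 (0.93) and Lrwd1 (0.92), and for Tbx1 Reln (0.94), Rgs17 (0.93) and Brf1 (0.93). An r above 0.9 was reached by 68 genes with Cidea, 75 with Ppargc1a, 29 with Ebf2, 26 with Cox8b and 21 with Cox7a1. It was reached by 6 with Prdm16 and 5 with Tbx1, the dimmest of the measured genes. The counts that chance would give were not computed.

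Markers of the other cells of the fat pad did not pass in either direction. The endothelial markers were 9 tested of 10, all higher in tg/tg fat with a median difference of 0.27. The mesothelium markers were 9 of 10, all lower with a median of -0.83. Of all tested probes, 57.5% had a higher mean in tg/tg fat. The epididymis markers were lower in tg/tg fat too, and their part in the mesothelium values was not tested. Macrophage markers gave 6 higher and 2 lower of 8 tested, stromal progenitor markers 5 higher and 4 lower of 9, and smooth muscle markers 4 higher and 1 lower of 5.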
